A study of Mus musculus with 6 samples.

Results

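The AP-1 family comprises transcription factors of the basic leucine zipper class. The family was taken here as 10 genes chosen by symbol from the deposited count table: Fos, Fosb, Fosl1 and Fosl2 of the Fos group, Jun, Junb and Jund of the Jun group, and Atf3, Batf and Batf3. All 10 were among the 23413 genes listed, and 9 of them were among the 10724 genes with enough counts to be tested; Fosb was not. RNA-seq had been made from wild-type mouse alveolar macrophages, which live in the airspaces of the lung and clear particles and microbes; they were collected by lavage and treated in culture. The first group received 100 ng/mL lipopolysaccharide (LPS), an outer-membrane component of Gram-negative bacteria, together with 50 nM vitamin D3 (VD3) for 4 h. The second received the same dose of LPS alone for 4 h, and the third was labelled as control. Each group had 2 libraries. The sources used here do not give the strain, sex or age of the mice or the culture time of the control cells. Nothing said that libraries came from separate mice. The p-values set group differences only against the spread between libraries, pooled over the groups and drawn toward that of all genes. That spread may be technical.

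As background, AP-1 proteins bind DNA as dimers. Jun proteins pair with themselves, with Fos proteins or with ATF and BATF proteins, whereas Fos proteins need a Jun partner. The choice of partner matters: FOS, FOSB and JUN carry strong activation domains, FOSL1 and FOSL2 lack the one of FOS, and JUNB activates many sites more weakly than JUN. ATF3 is a stress-induced factor known in macrophages as a brake on cytokine genes downstream of the LPS receptor. BATF and BATF3 hold little beyond the zipper and bind with Jun proteins and IRF4 or IRF8; BATF3 is best known from the cross-presenting dendritic cell lineage. In macrophages LPS is known to drive Fos and Jun transcription for a short time through MAP kinases.

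Total counts lay between 5022314 and 5465223 per library. The LPS libraries stood further apart than those of the other groups: Pearson's r of log2 CPM (counts scaled to library size) across genes was 0.981 between the LPS + VD3 libraries, 0.969 between the LPS libraries and 0.991 between the control libraries. The title of LPS 1 carried a number far from those of all other libraries, LPS 2 included, which ran close together. The labels do not say what these numbers mean, and their part in the spread was not tested. GC-rich genes tended to be higher in LPS 1 than in LPS 2: across 10642 genes, which are not independent replicates, Spearman's rho between GC content and this difference was 0.655. This touches several AP-1 genes, since Jund (67.1% GC), Junb (62.6%), Batf3 (60.7%) and Fosl1 (58.5%) lay above 57.3%, the level that 90% of tested genes stay under. The alveolar macrophage label fitted its markers: all 12 listed under a matching symbol had counts, and their summed level lay between 24457 and 26704 CPM in LPS + VD3, 26265 and 28006 CPM in LPS, and 23031 and 23145 CPM in control libraries. Of these markers 3 rose and 7 fell in LPS against control, and none passed in LPS + VD3 against LPS. Neutrophil markers summed to 58.6 to 70.7 CPM in LPS + VD3, 50.5 to 58.9 CPM in LPS and 55.5 to 60.3 CPM in control libraries, with 4 of 9 (Elane, Mpo, Retnlg and S100a9) at 0 throughout. Of the 3 that could be tested, S100a8 rose in LPS + VD3 against control (0.81 ± 0.24, edgeR adjusted p = 0.0239). Csf3r (-0.18 ± 0.47, edgeR adjusted p = 0.795) and Mmp8 (-0.04 ± 0.20, 0.892) did not pass there. Mmp8 made up most of the sum, with 44.2 CPM in LPS + VD3 and 45.5 CPM in control on average. Lymphocyte markers summed to 0.628 to 3.38 CPM in LPS + VD3, 1.64 to 2.02 CPM in LPS and 0.962 to 1.88 CPM in control libraries, with 5 of 12 at 0, among them Cd3e. The part of these cells in the AP-1 results was not tested. In bulk RNA, fewer cells of a type and less RNA per cell cannot be told apart.

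Which AP-1 genes made up the family differed between treated and control macrophages. Levels were compared between genes as TMM-scaled CPM per kilobase of exon. Summed over the 10 genes, the level was 354 and 325 CPM per kb in the LPS + VD3 libraries, 407 and 297 CPM per kb in the LPS libraries, and 148 and 140 CPM per kb in the control libraries. Both treated groups lay above control in every library and overlapped each other.

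In LPS macrophages the order of mean levels was Atf3 with 121 ± 19.3, Junb with 82.7 ± 32.8, Fosl2 with 53.9 ± 0.763, Jund with 51.3 ± 18.6, Batf with 21.0 ± 1.57 and Batf3 with 12.1 ± 3.54 CPM per kb (SD, n = 2). Jun followed with 5.53 ± 0.462, Fos with 2.18 ± 0.0902, Fosl1 with 1.97 ± 0.638 and Fosb with 0.162 ± 0.154 CPM per kb. Jund overlapped both Junb and Fosl2 between libraries, and Fosl1 overlapped Fos, so these neighbours were not apart beyond their spread. In LPS + VD3 macrophages Junb with 96.1 ± 15.8, Fosl2 with 77.8 ± 6.16 and Atf3 with 77.2 ± 6.91 CPM per kb led (SD, n = 2), and Fosl2 and Atf3 overlapped. In control macrophages Atf3 with 32.9 ± 1.93, Fosl2 with 28.3 ± 0.509 and Jund with 24.4 ± 1.57 CPM per kb stood at the top, and Fos with 9.33 ± 0.783 and Jun with 8.58 ± 0.478 CPM per kb were close to each other. Fos and Jun, the members for which AP-1 is best known, had lower mean levels than Atf3, Fosl2, Jund and Junb in every group.

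Atf3 made up 23.2% and 22.3% of the summed level in the LPS + VD3 libraries, 33.1% and 36.1% in the LPS libraries, and 23.2% and 22.6% in the control libraries. Its share was highest in both LPS libraries. The 3 Jun genes together made up 45.6% in each LPS + VD3 library, 43.3% and 34.7% in LPS and 34.3% and 31.9% in control, so the lowest treated library stood just above control.

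**Figure D1:**
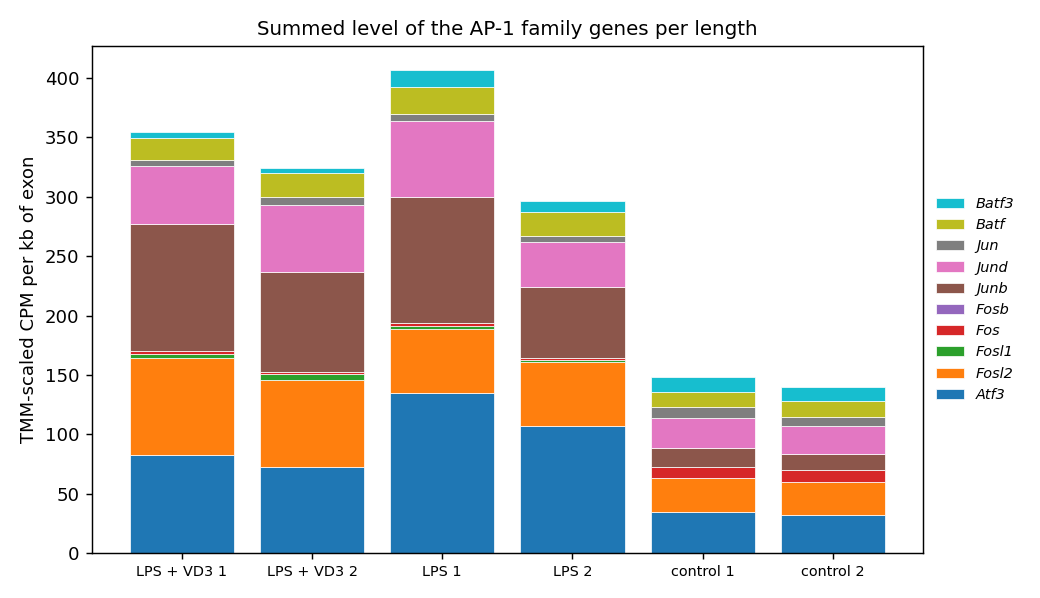
Stacked bars show the TMM-scaled CPM per kb of exon of each AP-1 gene in each of the 6 libraries. The treated libraries reach 297 to 407 CPM per kb in sum and the control libraries 140 and 148, with Atf3, Fosl2, Junb and Jund as the broad bands.

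LPS against control asked which AP-1 genes differed after 4 h of LPS. LPS macrophages had more Junb, Atf3, Fosl1, Fosl2, Jund and Batf RNA and less Fos and Jun RNA than control macrophages, while Batf3 did not pass the test. By edgeR's quasi-likelihood test at a Benjamini-Hochberg adjusted p under 0.05, 6 of 9 tested members rose and 2 fell. Of all genes tested, 31.8% were called in either direction, 15.7% as higher and 16.2% as lower. The median log2 fold change was 0.93 over the 9 members and 0.01 over all tested genes. The libraries of both groups did not overlap for 8 of the 9 members, as for 65.2% of all genes tested.

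Fos, whose protein needs a Jun partner, had 4.72 and 4.45 CPM in the LPS libraries, against 18.5 and 20.8 CPM in the control libraries. Both LPS libraries were far below control, and the groups did not overlap. Its log2 fold change was -2.10 ± 0.32 (SE; edgeR adjusted p = 0.000684). This call held in all 17 alternative fits, with fold changes between -2.39 and -2.01.

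Fosl2, the gene of the Fos-related antigen Fra-2, was the most abundant Fos gene in every library and moved the other way. Its level was 356 and 349 CPM in LPS, against 187 and 183 CPM in control. Replicates differed little, and the log2 fold change was 0.93 ± 0.14 (edgeR adjusted p = 0.000656). Fosl1, the gene of Fra-1, was rare, with 22 and 14 counts in LPS against 3 and 7 counts in control. Its control counts lay under the filter's minimum count of 10. It was thus tested only through its treated libraries, which favours a rise against control. The groups did not overlap, and the log2 fold change was 2.12 ± 0.57 (edgeR adjusted p = 0.0163). That call was lost without control 1 (0.117) or LPS 1 (0.0672). Fosl1 also overlaps Ccdc85b, which lies on the opposite strand and fell (log2 fold change -1.30 ± 0.43, edgeR adjusted p = 0.0442); reads of the overlap cannot be assigned without knowing the strand setting of the counting.

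Fosb, a close relative of Fos, was barely detected. It had 5 and 1 counts in LPS and 1 and 3 counts in control, sums of 6 (95% exact Poisson interval 2.20 to 13.1, counting error only) and 4 (1.09 to 10.2). At this depth no difference was detectable.

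**Figure D2:**
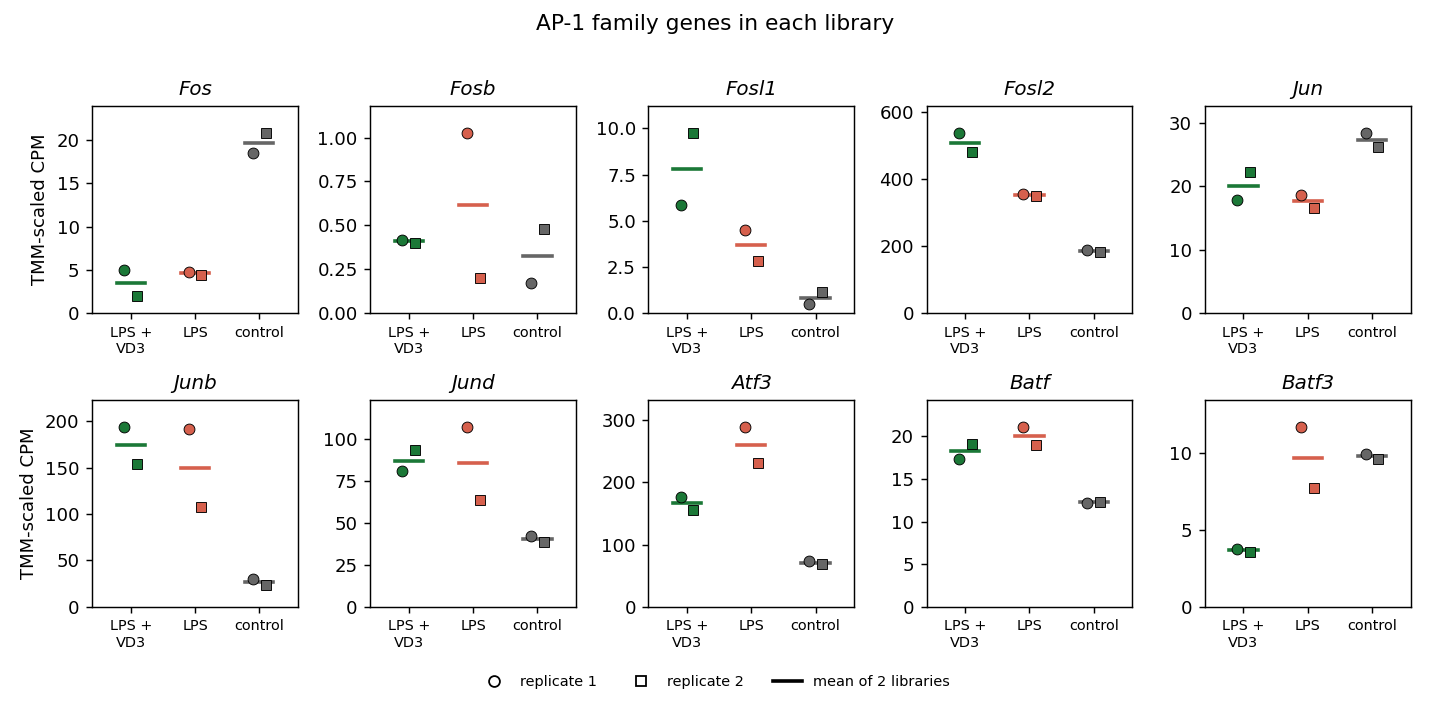
Each panel shows 1 AP-1 gene as TMM-scaled CPM in LPS + VD3, LPS and control macrophages; circles and squares are replicates 1 and 2 and bars are means of 2 libraries. Fos is low and Fosl2, Junb, Jund and Atf3 are high in all treated libraries, and Batf3 is at 3.77 and 3.58 CPM in LPS + VD3 and at 7.69 to 11.7 CPM in all other libraries.

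The Jun genes also split. Junb rose most, with 191 and 108 CPM in LPS against 29.6 and 23.7 CPM in control. Both LPS libraries stood well above control but differed from each other. The log2 fold change was 2.49 ± 0.28 (edgeR adjusted p = 7.78e-05), and between 1.99 and 2.84 in the alternative fits, all past the threshold. The end of Junb overlaps the antioxidant gene Prdx2 on the opposite strand, which did not pass (0.25 ± 0.27, edgeR adjusted p = 0.517).

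Jund, the Jun gene known for steady expression in resting cells, had 108 and 63.7 CPM in LPS, against 42.5 and 38.8 CPM in control. The groups did not overlap, with LPS 2 the nearer to control. The log2 fold change was 1.07 ± 0.24 (edgeR adjusted p = 0.00597), a call lost without control 2 (0.0519). It was 0.63 without LPS 1 and 1.40 without LPS 2.

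Jun itself had 18.7 and 16.6 CPM in LPS, against 28.4 and 26.3 CPM in control. LPS libraries were lower with no overlap, by a log2 fold change of -0.63 ± 0.20 (edgeR adjusted p = 0.037). The call is a weak one: it was lost in 6 of 17 alternatives, with adjusted p up to 0.243, among them DESeq2 (0.104) and the fits without control 1 (0.243), control 2 (0.159) or LPS 2 (0.0502).

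The upstream sequences of Fos, Jun and Junb are shown because these genes moved in opposite directions in the same cells. Each run gives the 250 bases before the RefSeq start site on GRCm38.p6 (mm10), 5′ to 3′ on the strand of the gene: Fos at chr12:85473640-85473889 on the plus strand, Jun at chr4:95052223-95052472 and Junb at chr8:84978749-84978998, both on the minus strand. Capitals mark matches to the motifs searched.
Fos: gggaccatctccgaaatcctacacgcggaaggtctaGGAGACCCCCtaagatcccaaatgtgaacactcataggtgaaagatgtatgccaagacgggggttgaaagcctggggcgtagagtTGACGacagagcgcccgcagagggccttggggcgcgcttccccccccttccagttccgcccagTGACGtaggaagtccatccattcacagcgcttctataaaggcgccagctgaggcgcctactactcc
Jun: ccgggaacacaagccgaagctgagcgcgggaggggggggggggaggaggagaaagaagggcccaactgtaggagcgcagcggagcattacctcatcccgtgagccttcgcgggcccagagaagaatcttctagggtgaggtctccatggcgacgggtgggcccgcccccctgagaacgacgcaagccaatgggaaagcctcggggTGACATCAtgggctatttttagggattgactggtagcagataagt
Junb: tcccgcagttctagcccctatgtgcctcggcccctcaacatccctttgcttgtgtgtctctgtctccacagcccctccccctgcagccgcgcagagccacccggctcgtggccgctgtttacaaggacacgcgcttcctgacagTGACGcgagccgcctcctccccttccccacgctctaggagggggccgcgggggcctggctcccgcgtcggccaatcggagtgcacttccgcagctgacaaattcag

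The Fos sequence held the core of a cAMP response element, TGACG, at 129 to 125 and at 66 to 62 bases before the start site, and an NF-kB match at 214 to 205 bases. Junb held TGACG at 106 to 102 bases. Jun held the AP-1-like octamer TGACATCA at 45 to 38 bases. Both strands were searched, in 32851 RefSeq upstream windows of the same length. TGACG was in 17.8% of them, TGACATCA in 2.93% and the NF-kB motif in 3.9%. Of the 9 members with a window, 5 held TGACG, 3 the NF-kB motif and 1 TGACATCA. None held the AP-1 site TGANTCA (6.75% of all windows), the full cAMP response element TGACGTCA (1.55%; TGACG is part of it), the serum response CArG box (1.47%) or the vitamin D response element (0.0396%). A match is a description of letters, and a missing match covers only these windows.

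Among the remaining members Atf3 rose, with 290 and 231 CPM in LPS against 73.8 and 68.0 CPM in control. The groups stood well apart, with a log2 fold change of 1.88 ± 0.17 (edgeR adjusted p = 2.04e-05) and all 17 alternatives past the threshold. Batf had 21.1 and 19.02 CPM in LPS, against 12.2 and 12.3 CPM in control, without overlap. Its log2 fold change of 0.71 ± 0.20 (edgeR adjusted p = 0.0228) lost the call in 6 of 17 alternatives, at 0.138 with library size as the only scaling, 0.0742 with DESeq2, 0.178 without control 1 and 0.173 without control 2. Batf3 had 11.7 and 7.69 CPM in LPS and 9.94 and 9.62 CPM in control. The LPS libraries lay on either side of control, and the log2 fold change was -0.01 ± 0.27 (edgeR adjusted p = 0.976). On mm10, Batf3 (191097847 to 191108945, plus strand) and Atf3 (191170296 to 191218039, minus strand) lie close together on chromosome 1, and Fos (85473890 to 85477273) and Batf (85686669 to 85709087) on chromosome 12.

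Without control 1, 5 members were called in place of 8, with Fosl1, Jun and Batf lost, and without control 2 also 5, with Jun, Jund and Batf lost. With library size as the only scaling the median of all genes was -0.29, and 26.2% of all calls were higher, against 49.2% with TMM; no called member changed direction in any alternative. The epithelium marker list, of which 2 of 13 genes could be tested and both fell (Cdh1 and Krt19), summed to 40.6 to 43.5 CPM in LPS and 251 to 274 CPM in control libraries. These 2 genes made up nearly all of the sum. On average Cdh1 had 33.1 CPM in LPS against 230 CPM in control, and Krt19 4.08 against 30.1 CPM. Sftpc and Scgb3a2 of the same list were at 0 in every library. The part of epithelial cells in the AP-1 results was not tested.

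The effect of VD3 in the presence of LPS was read from LPS + VD3 against LPS. Batf3 was the 1 member that passed, and it was lower in LPS + VD3 macrophages. Fosl1 and Fosl2 had higher and Atf3 lower values in both LPS + VD3 libraries than in either LPS library, but these did not pass. The single call is 1 of 9 tested members, against 3.83% of all genes tested, of which 2.25% were called as higher and 1.59% as lower. The median log2 fold change was 0.03 over the members and -0.0025 over all tested genes. Libraries did not overlap for 4 of the 9 members, as for 48.1% of all genes. An unadjusted p under 0.05 was reached by 4 members: Fosl1, Fosl2, Atf3 and Batf3.

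Batf3, the dimer partner of Jun proteins in type 1 dendritic cells, had 3.77 and 3.58 CPM in LPS + VD3, against 11.7 and 7.69 CPM in LPS. In reads these were 18 counts in each LPS + VD3 library, against 57 and 38 counts in LPS. The LPS + VD3 libraries were close together and below every LPS and control library. The log2 fold change was -1.39 ± 0.32 (edgeR adjusted p = 0.0418). The call sat near the threshold and was lost in 10 of 17 alternatives, among them DESeq2 (0.0513), limma-voom (0.0642), offsets for GC content (-0.92, 0.0558) and the fit without LPS 1 (-1.07, 0.116). It was also lost without LPS + VD3 1 (0.18), LPS + VD3 2 (0.328), control 1 (0.0857) or control 2 (0.0853). Its direction was the same in all 17, with adjusted p between 0.00174 and 0.328.

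Markers of dendritic cells were few, and summed to 17.2 to 18.9 CPM in LPS + VD3, 14.6 to 15.4 CPM in LPS and 19.4 to 27.6 CPM in control libraries. Of the 10 listed, 3 could be tested, and none passed in this comparison. Xcr1 had 72 counts over the LPS + VD3 libraries, 31 over LPS and 9 over control, Clec9a had 56, 49 and 235 in the same order, and Siglech had 0, 1 and 0. Stroma and endothelium markers summed to 5.02 to 5.18 CPM in LPS + VD3 and 9.44 to 11.3 CPM in LPS libraries; of the 10 listed, 3 could be tested, 1 of them (Pdgfrb) fell, and Col3a1 was at 0 throughout. The part of either cell type in the Batf3 difference was not tested.

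Atf3 had 177 and 156 CPM in LPS + VD3, against 290 and 231 CPM in LPS. All treated libraries stayed above the 73.8 and 68.0 CPM of control, with LPS + VD3 between LPS and control. Its log2 fold change was -0.65 ± 0.16 (edgeR adjusted p = 0.0617), and 5 of 17 alternatives passed, such as DESeq2 (-0.66, 0.0192), GC offsets (-0.53, 0.0187) and the fit without LPS 2 (-0.80, 0.000834). It did not reverse in any of the 17.

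Fosl2 had 537 and 480 CPM in LPS + VD3, against 356 and 349 CPM in LPS. Its order was the same in every library: LPS + VD3 highest, LPS between and control lowest. Its log2 fold change was 0.53 ± 0.14 (edgeR adjusted p = 0.0715), past the threshold in 6 of 17 alternatives, among them DESeq2 (0.51, 0.0465), GC offsets (0.67, 0.00501) and the fits without LPS 1 (0.53, 0.0328) or LPS 2 (0.52, 0.00911). Fosl1 had 28 and 49 counts in LPS + VD3, against 22 and 14 counts in LPS. Its libraries did not overlap either, and the log2 fold change was 1.09 ± 0.39 (edgeR adjusted p = 0.15), or 1.48 with GC offsets (0.0341). Fos had 5.02 and 1.99 CPM in LPS + VD3 and 4.72 and 4.45 CPM in LPS. These overlapped, and at 24 and 10 counts in LPS + VD3 a moderate difference was not detectable (-0.40 ± 0.42, edgeR adjusted p = 0.595). Fosb had 2 counts in each LPS + VD3 library.

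The Jun genes and Batf overlapped between LPS + VD3 and LPS. Junb had 194 and 154 CPM in LPS + VD3 and 191 and 108 CPM in LPS (log2 fold change 0.22 ± 0.25, edgeR adjusted p = 0.634). Jund had 81.0 and 93.6 CPM in LPS + VD3 and 108 and 63.7 CPM in LPS (0.03 ± 0.23, edgeR adjusted p = 0.954). For both genes the LPS libraries themselves spanned the LPS + VD3 values or most of their range. Jun had 17.8 and 22.3 CPM in LPS + VD3 and 18.7 and 16.6 CPM in LPS (0.19 ± 0.21, edgeR adjusted p = 0.623). Batf had 17.4 and 19.1 CPM in LPS + VD3 and 21.1 and 19.02 CPM in LPS (-0.14 ± 0.20, edgeR adjusted p = 0.711). None of the 4 passed.

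The GC-rich members were also those that differed most between the LPS libraries. On the log2 CPM scale LPS 1 exceeded LPS 2 by 0.83 in Junb, 0.75 in Jund, 0.61 in Fosl1 and 0.58 in Batf3, against 0.33 in Atf3, 0.17 in Jun, 0.15 in Batf, 0.08 in Fos and 0.03 in Fosl2. Which LPS library was used decided the value for Junb: 0.68 without LPS 1 (edgeR adjusted p = 0.0362) and -0.14 without LPS 2 (0.556). Jund was at 0.44 without LPS 1 and -0.30 without LPS 2, neither of which passed. With offsets for GC content, 5 members passed in place of 1: Fosl1, Fosl2, Junb (0.78, edgeR adjusted p = 0.00369) and Jund (0.76, 0.0133) as higher, and Atf3 as lower. The offsets were fitted to each library's deviation from the mean of all 6 libraries, so they also remove any GC trend that goes with treatment. Of all genes, 764 passed with GC offsets and 411 without. GC content was known for 99.2% of tested genes.

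**Figure D3:**
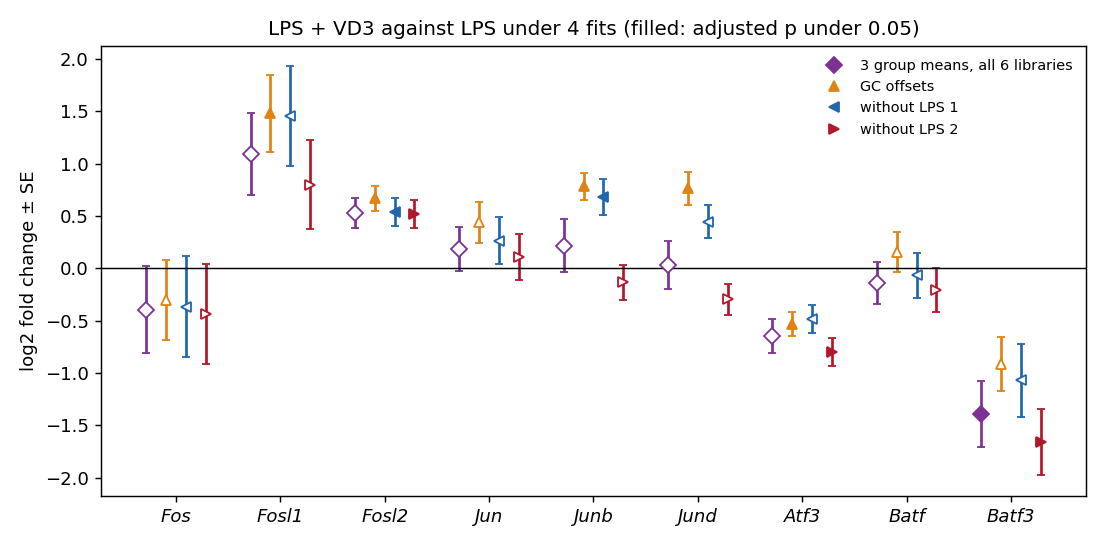
Log2 fold changes ± SE of LPS + VD3 against LPS for the 9 tested AP-1 genes under 4 fits, filled where the adjusted p is under 0.05. Fosl2, Fosl1, Atf3 and Batf3 keep their side of 0 under all 4, while Junb and Jund lie above 0 with GC offsets and below 0 without LPS 2.

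LPS + VD3 against control shares its control libraries with LPS against control and its LPS + VD3 libraries with the comparison above, so its values are not independent of them. Fosl1, Fosl2, Junb, Jund and Atf3 were higher and Fos and Batf3 lower in LPS + VD3 than in control macrophages. That is 5 members that rose and 2 that fell of 9 tested, where 35.0% of all genes were called. The libraries of both groups were apart for 9 of the 9, as for 75.8% of all genes. The log2 fold change was 3.21 ± 0.49 for Fosl1 (edgeR adjusted p = 0.000673), which passed the filter only through its treated libraries, and 2.70 ± 0.28 for Junb (4.28e-05). Fosl2 was at 1.46 ± 0.14 (edgeR adjusted p = 3.26e-05), Atf3 at 1.23 ± 0.17 (0.000322) and Jund at 1.10 ± 0.24 (0.00485). Jund lost its call without LPS + VD3 2 (0.07).

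Fos was lower, at -2.49 ± 0.34 (edgeR adjusted p = 0.000295), and Batf3 at -1.41 ± 0.31 (0.00585, and 0.0554 without LPS + VD3 2). Batf3 was the 1 member that passed here but not in LPS against control, and its test in LPS + VD3 against LPS is the test of that difference. Jun (-0.45 ± 0.20, edgeR adjusted p = 0.111) and Batf (0.57 ± 0.21, 0.0536) did not pass, though each passed in 6 of 17 alternatives. With GC offsets Batf was at 0.79 (0.00656), and Jun without LPS 1 at -0.47 (0.0306).

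**Figure D4:**
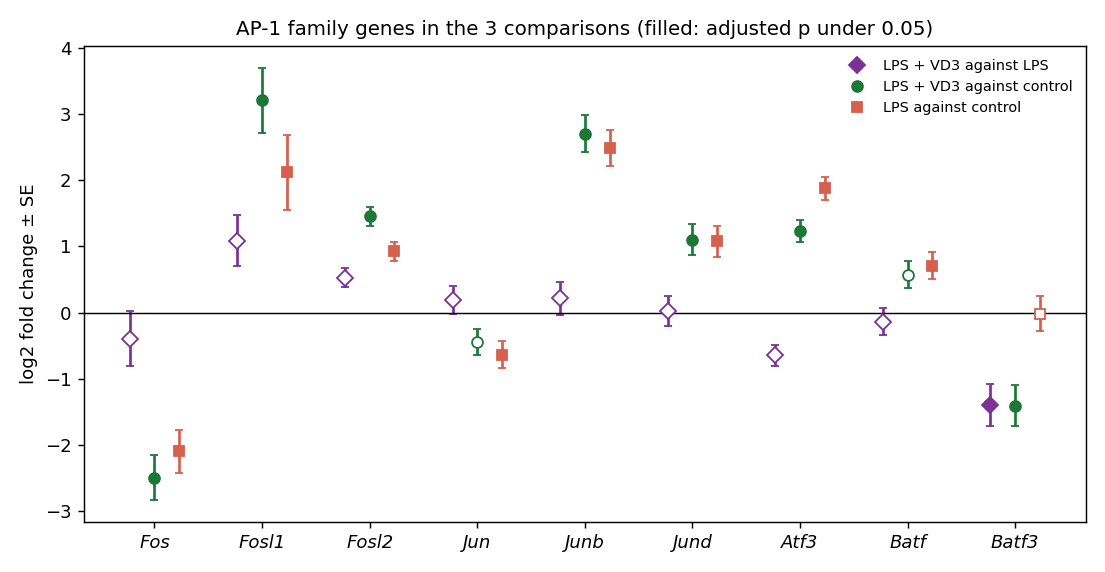
Log2 fold changes ± SE of the 9 tested AP-1 genes in the 3 comparisons, filled where the adjusted p is under 0.05. Fos lies near -2.10 and -2.49 against control, Junb near 2.49 and 2.70, and Batf3 near -0.01 in LPS against control, -1.39 in LPS + VD3 against LPS and -1.41 in LPS + VD3 against control.

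Genes around the AP-1 family were read from lists of textbook knowledge, whose counts stand beside 31.8% of all genes called in LPS against control and 3.83% in LPS + VD3 against LPS. The lists were chosen with earlier results of these data known, so the counts are not independent of the data. Among 25 other basic leucine zipper factors, 8 rose and 5 fell in LPS against control, with a median log2 fold change of 0.39. Nfe2l1, a factor of proteasome and redox genes, had 450 CPM in LPS against 176 CPM in control on average (1.36 ± 0.14, edgeR adjusted p = 4.97e-05). The small Maf genes Mafg and Maff, whose proteins lack an activation domain, rose by 1.61 ± 0.18 and 1.67 ± 0.20.

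Of these 25 factors, 1 rose and 1 fell in LPS + VD3 against LPS, with a median of 0.11. Maff had 44.0 and 36.2 CPM in LPS + VD3, against 82.3 and 67.0 CPM in LPS. The log2 fold change was -0.90 ± 0.19 (edgeR adjusted p = 0.0305), a call lost in 6 of 17 alternatives, such as without control 1 (0.0739) or LPS + VD3 1 (0.127). Like Atf3, Maff was highest in the LPS libraries.

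Of 32 tested MAP kinase cascade genes, 12 rose and 2 fell in LPS against control (median 0.47), but 8 rose and 6 fell with library size as the only scaling. The p38 kinase Mapk14 rose by 1.55 ± 0.15, its substrate kinase Mapkapk2 by 2.04 ± 0.17, the ERK pathway kinase Map3k8 by 1.82 ± 0.17 and Rps6ka2 of the RSK family by 2.12 ± 0.17. Of these kinases, 3 fell and none rose in LPS + VD3 against LPS (median -0.06). Map2k3, which activates p38, had 45.9 and 46.2 CPM in LPS + VD3, against 98.3 and 78.1 CPM in LPS (-0.94 ± 0.17, edgeR adjusted p = 0.0139). Mapkapk3 fell by 0.83 ± 0.17 (0.0297) and Rps6ka4, the nuclear kinase MSK2, by 0.88 ± 0.20 (0.0453). All 3 calls were lost without either LPS + VD3 library, at adjusted p between 0.134 and 0.41, those of Mapkapk3 and Rps6ka4 also without either control library, at 0.0772 to 0.0869, and that of Rps6ka4 with GC offsets (-0.42, 0.0867) or without LPS 1 (0.0514).

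Of 20 factors that act at the Fos and Jun promoters, 3 rose in LPS against control and none fell (median 0.03), a smaller share than over all genes. The split turned with scaling: with library size alone 1 rose and 4 fell, and with the deposited log2 values 1 rose and 3 fell. Ets2 had 142 CPM in LPS against 26.3 CPM in control on average (2.43 ± 0.16, edgeR adjusted p = 1.84e-06). Mef2a and Crtc2 had 0.66 ± 0.16 and 0.83 ± 0.23, calls lost without control 2 (0.114 and 0.202), with library size alone (0.36 and 0.54; 0.106 and 0.0896), with the deposited log2 values at either pseudocount, and for Mef2a also without control 1 (0.133). edgeR called 0 of the 20 in LPS + VD3 against LPS, and up to 4 in the alternatives. The smallest adjusted p there was 0.232 for Elk3 (-0.38 ± 0.17).

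Of 22 tested turnover and cofactor genes, 4 rose and 3 fell in LPS against control (median 0.18), about the share over all genes. With library size alone or the deposited log2 values, 1 rose and 5 fell. Zfp36l2, which promotes decay of AU-rich mRNAs, was lower by a log2 fold change of -1.08 ± 0.15 (edgeR adjusted p = 0.000295). Fbxw7, the ubiquitin ligase subunit known to target JUN protein, was the 1 gene of the list that rose in LPS + VD3 against LPS. It had 63.0 and 75.2 CPM in LPS + VD3, against 24.2 and 36.8 CPM in LPS (1.18 ± 0.22, edgeR adjusted p = 0.0167). Both LPS + VD3 libraries were well above all others, and the call was lost without either of them (0.104 and 0.256).

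Among 35 tested genes known as AP-1 targets, many of which answer to other factors too, 21 rose and 3 fell in LPS against control, with a median log2 fold change of 0.91; with library size alone 19 rose and 7 fell, and with the deposited log2 values 12 and 6. Cxcl2, Il1b, Il6 and Tnf had the smallest p, with log2 fold changes of 9.07 ± 0.22, 7.92 ± 0.22, 11.70 ± 0.40 and 6.63 ± 0.22. Il6 had only 4 and 0 counts in the control libraries, so the size of its fold change is uncertain. Of these targets, 4 rose and 3 fell in LPS + VD3 against LPS (median -0.34). Hbegf, an epidermal growth factor family ligand, had 198 and 197 CPM in LPS + VD3, against 16.2 and 15.4 CPM in LPS (3.64 ± 0.19, edgeR adjusted p = 1.87e-05). The collagenase gene Mmp13 had 218 and 230 CPM in LPS + VD3, against 92.8 and 112 CPM in LPS (1.13 ± 0.16, edgeR adjusted p = 0.00379; lost without LPS + VD3 1 at 0.0557 or LPS + VD3 2 at 0.0913). Both genes were highest in the LPS + VD3 libraries, as were Ccl2 (2.08 ± 0.20) and Lif (1.62 ± 0.18). The 3 that fell, named after their values were seen, were the intermediate filament gene Vim (-0.75 ± 0.14), the growth factor gene Areg (-1.33 ± 0.27) and the plasminogen activator gene Plau (-1.36 ± 0.30). Their calls were lost without LPS + VD3 2 (0.178, 0.29 and 0.275), those of Vim and Areg also without LPS + VD3 1 (0.0915 and 0.17), and those of Vim and Plau without control 1 (0.0828 and 0.0592) or control 2 (0.0817 and 0.0581). With GC offsets 5 of the list rose and 9 fell.

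Immediate early and handling genes, which answer within an hour to stimulation or handling of fresh cells, were read beside Fos and Jun. In LPS against control 9 of 22 tested rose and 6 fell (median 0.60). Klf4 fell, at -5.62 ± 0.28, Gadd45b rose by 5.23 ± 0.31 and Ier3 by 3.28 ± 0.25, while Nr4a3 had 154 counts over the LPS libraries and 0 over control, at least 63.2-fold higher against a floor of 3 counts over the group. The list thus moved in both directions, as Fos and Junb did. Of the same list, 1 rose and 2 fell in LPS + VD3 against LPS (median -0.25). Myc had 47.7 and 62.7 CPM in LPS + VD3, against 23.8 and 19.2 CPM in LPS (1.36 ± 0.21, edgeR adjusted p = 0.006; lost without LPS + VD3 2 at 0.117). Klf6 and Ier5 fell, at -0.93 ± 0.16 and -1.25 ± 0.27 (edgeR adjusted p = 0.0122 and 0.0346), calls lost without LPS + VD3 1 (0.136 and 0.0852) or LPS + VD3 2 (0.174 and 0.365).

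The genes most like Batf3 over the 6 libraries were taken by the Euclidean distance of log2 CPM (prior count 2) centred on each gene's mean. The nearest were Cxcl14, a chemokine gene, at a distance of 0.24, Unc119 at 0.27 and Rin3 at 0.29. Cxcl14 had 9.63 and 10.2 CPM in LPS + VD3, 30.0 and 18.2 CPM in LPS and 25.0 and 21.0 CPM in control. Unc119 had 41.0 and 36.2 CPM in LPS + VD3, 124 and 65.1 CPM in LPS and 94.6 and 94.2 CPM in control. Rin3 had 29.1 and 32.4 CPM in LPS + VD3, 82.3 and 53.4 CPM in LPS and 79.1 and 65.7 CPM in control. All 3 were lowest in both LPS + VD3 libraries and higher in LPS 1 than in LPS 2, as Batf3 was. This likeness follows from the way they were chosen and is no separate result.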

How the data were processed

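The authors deposited raw read counts, whole numbers for each gene symbol in each of the 6 libraries. TopHat2, edgeR and mm10 appear in the submitters' processing notes, with no versions. Libraries came from the KAPA mRNA HyperPrep kit, after RNeasy Micro purification, per the labels' protocols. The counting program, annotation and strand setting were not given, so counts of genes that overlap or have antisense partners are uncertain. Jun, Jund and Atf3 have such partners too, which were not analysed here. The deposited second table holds log2 values, which equal log2(CPM + 1) of the counts within 0.00423 over 10327 matched genes and served only for alternatives.

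The test was edgeR's (version 4.0.16, R 4.3.3): filterByExpr (minimum count 10, minimum total 15), TMM scaling, and a quasi-likelihood fit of 3 group means to all 6 libraries (3 residual and 7.01 prior degrees of freedom), with Benjamini-Hochberg adjustment over 10724 genes at 0.05. The SE is the fold change divided by the root of the F statistic. The script was tested on simulated data. CPM values are TMM-scaled, with exon lengths and GC content from GENCODE M21 (98.3% of symbols matched) and upstream sequences from RefSeq (GRCm38.p6). No sequence was had for Fosl1. Alternatives, 17 in all, used DESeq2 1.42.0, limma 3.58.1 and other scalings, filters, offsets and sets of libraries. A fit that leaves 1 library in a group assumes that it varies like the other groups.

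All 10 members are named. From each list up to 4 tested genes with the smallest p in each of the first 2 comparisons are named, and for each member called in LPS + VD3 against LPS the 3 nearest patterns. The values of 1 gene that the rule names are not reported here. The members and lists were chosen with earlier results of these data known.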

Additional observations from a re-analysis of the deposited data

How the results depend on the processing

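Over the 17 alternatives, the number of AP-1 members called in LPS against control stayed at 6 to 8 outside the fits that leave out a library, which gave 5 to 8, and in LPS + VD3 against control it was 5 to 9 against 7. In LPS + VD3 against LPS the 1 call became 0 with no filter, with limma-voom and with only the libraries compared, 2 with DESeq2, 5 with GC offsets and 0 to 3 when a library was left out. The replicate number as a block gave 3, with Fosl2 (0.53, edgeR adjusted p = 0.027) and Atf3 (-0.64, 0.0131) added to Batf3, and 6 together with GC offsets. The LPS + VD3 libraries are named LPS1 plus VD3 and LPS2 plus VD3, which refers each to an LPS library by number, but no label says what a number shares (mice, a culture or a day), and with 2 numbers the pairing cannot be decided: the log2 differences between replicates 1 and 2 correlated across genes at 0.20 between LPS + VD3 and LPS, 0.17 between LPS and control and 0.09 between LPS + VD3 and control.

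Signs changed only for members that had not passed. In LPS + VD3 against LPS, Jund was at -0.0062 with library size alone and between -0.30 and 0.44 with a library left out, Batf at 0.16 with GC offsets and 0.15 with the block added, Junb between -0.14 and 0.68, and Fos between -1.19 and 0.12. Batf3 in LPS against control lay between -0.36 and 0.26. The cause was not tested. All genes called ranged from 1940 to 4829 in LPS against control (3411 as reported), 55 to 3670 in LPS + VD3 against LPS (411) and 2126 to 5410 in LPS + VD3 against control (3749). The lowest counts came without control 1 or 2 in the comparisons with control (in LPS + VD3 against control also without LPS + VD3 2, at 2135) and without LPS + VD3 1 or 2 in LPS + VD3 against LPS, where the highest came without LPS 2. With library size alone 25.9% of calls were higher in LPS + VD3 against control, and 50.5% with TMM. In LPS + VD3 against LPS the alternatives called 0 to 6 MAP kinase cascade genes as higher and 0 to 9 as lower, 3 to 8 and 0 to 17 known AP-1 targets, and 0 to 6 and 0 to 5 other basic leucine zipper factors. Depth limits Fosb, Fosl1, Batf3, Batf and Fos, with at most 5, 49, 60, 103 and 130 counts in a library.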

Other observations

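In a list that holds partners of BATF proteins beside other regulators such as Id2, Zeb2 and Prdm1, Irf4 rose in LPS + VD3 against LPS. Irf4, whose protein binds composite sites with BATF and JUN, had 185 and 189 CPM in LPS + VD3, against 72.0 and 71.2 CPM in LPS (log2 fold change 1.39 ± 0.15, edgeR adjusted p = 0.000915). Both LPS + VD3 libraries stood above every other library, while Batf3 was below every other library in the same samples. Irf8, the partner known from type 1 dendritic cells, had 14.98 and 11.7 CPM in LPS, against 36.1 and 38.3 CPM in control (-1.48 ± 0.20, edgeR adjusted p = 0.000308). In LPS + VD3 it had 18.6 and 18.1 CPM, above both LPS libraries and below both control libraries. Irf8 did not pass in LPS + VD3 against LPS, where the libraries of 48.1% of all genes did not overlap. Id2, an inhibitor of helix-loop-helix factors, had 133 and 131 CPM in LPS + VD3, against 218 and 235 CPM in LPS. The log2 fold change was -0.78 ± 0.14 (edgeR adjusted p = 0.0142), a call lost without control 1 (0.071), control 2 (0.0708), LPS + VD3 1 (0.125) or LPS + VD3 2 (0.178). Of the 7 tested genes of this list, 3 rose and 1 fell in LPS against control (2 and 2 with library size as the only scaling), and 1 rose and 1 fell in LPS + VD3 against LPS. Those that rose in LPS were Nfil3 (1.37 ± 0.19, edgeR adjusted p = 0.000415), Prdm1 (1.32 ± 0.19, 0.000421) and Zeb2 (0.81 ± 0.22, 0.0189). The call of Zeb2 was lost with library size alone (0.52, 0.089).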
